A study of Mus musculus with 4 samples.

Results

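The alarmins and inflammatory cytokines examined here were 10 genes taken by symbol from a table of 40092 gene rows: the alarmins Il33, Tslp, Il1a and Il18, the inflammatory cytokines Il1b, Il6 and Tnf, and the colony-stimulating and macrophage growth factors Csf1, Il34 and Csf2. All 10 symbols had a row, and 8 of them had enough counts to be tested. The data were RNA-seq read counts from alveolar type 2 (AT2) cells, which make surfactant and renew the lung alveolus, sorted as GFP+ cells 14 days after bleomycin, a drug that injures the lung and leads to fibrosis. The contrast asked how loss of Alkbh5, an enzyme that removes the N6-methyladenosine (m6A) mark from RNA, changed these transcripts in injured AT2 cells.

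The control group (Ctrl) carried Alkbh5flox/+, and the knockout group (A5-CKO) carried Alkbh5flox/flox. Both groups also carried Sftpc-CreERT2, a tamoxifen-inducible recombinase driven by the AT2 gene Sftpc, and the Rosa26-mTmG reporter, which turns recombined cells green. Both received tamoxifen and bleomycin, so Ctrl cells had also lost 1 Alkbh5 copy wherever Cre had acted, and there was no uninjured group among these libraries. Each group had 2 libraries, numbered 1 and 2. Throughout, a pair of values gives replicate 1 and then replicate 2 of a group, and 4 values in a row give the Ctrl pair followed by the A5-CKO pair. The animals were littermates of unstated age, and nothing in the labels says whether the libraries of a group came from separate mice, so p-values measure only the spread between libraries.

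Alarmins are proteins that damaged barrier cells release to warn the immune system, and the airway epithelium is a well known source of IL-33 and TSLP. IL-1α and IL-1β share a receptor and act through MyD88 and NF-κB. IL-1β and IL-18 are made as precursors that are cut into active forms chiefly by caspase-1 of the inflammasome. CSF1 and IL-34 are both ligands of the receptor CSF1R on macrophages, whereas GM-CSF, the product of Csf2, is needed in the lung for alveolar macrophages to mature and clear surfactant.

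The libraries held between 18144865 and 20811757 counts. Values are given as normalized counts (CPM, counts scaled to a common library size) with edgeR's TMM factors, and a count of 3, taken as the lower limit of detection, equals 0.128 to 0.177 CPM; this limit covers counting error only. The targeted gene came first: Alkbh5 was measured at 81.7 and 152 CPM in Ctrl against 19.3 and 36.6 CPM in A5-CKO, a log2 difference of -2.06 ± 0.46 (standard error). The p adjusted by Benjamini-Hochberg was 0.528 in the edgeR quasi-likelihood test and 0.0235 in DESeq2, the tool the study names. The defining markers of AT2 cells were all present, and they summed to 56842 and 82478 CPM in the Ctrl libraries and to 42680 and 35068 CPM in the A5-CKO libraries, and all 10 of them had a fitted value below 0 for A5-CKO over Ctrl. Markers of other cells were present at far lower sums. Those of leukocytes, mesenchymal, endothelial and mesothelial cells overlapped between genotypes, whereas the club and ciliated markers summed to 3158 and 3303 CPM in Ctrl against 2434 and 1472 CPM in A5-CKO. The endothelial marker Cldn5 was listed at 0, but in a run of 4 neighbouring genes at or under 3 counts in every library, so that absence could not be read from it. The 12 macrophage and monocyte markers summed to 960 CPM in Ctrl 1 and 1192 CPM in A5-CKO 2 but to 178 CPM in Ctrl 2 and 215 CPM in A5-CKO 1, and across all genes the closest pair of libraries was Ctrl 1 with A5-CKO 2. In bulk libraries, fewer cells of a type and less RNA per cell cannot be told apart.

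In A5-CKO, 2 of the 8 tested cytokines were above Ctrl (Il1b and Il6) and 6 were below it. The median log2 fold change of the 8 was -0.42, against -0.02 for all 16661 genes tested. Il6 passed the filter on low counts with the help of its A5-CKO libraries, which favours that direction. No cytokine passed an adjusted p of 0.05 in edgeR's test, and neither did any other gene (0% of genes tested), the targeted gene included, while DESeq2 with its default filter called 59 genes, none of them a cytokine studied here. At an unadjusted p under 0.05, 1 cytokine was higher (Il1b) and 2 were lower (Csf2 and Il34), 3 in all, where 4.48% of all genes were higher, 4.71% were lower and 9.18% were past that limit in either direction. The genotypes did not overlap for Il1b and Il6, with A5-CKO the higher as for 20.3% of all genes, nor for Csf1, Csf2 and Il34, with A5-CKO the lower as for 23.5% of all genes. The median of the tested cytokines depended on 1 library: without Ctrl 1 it was 0.28, while without each of the other libraries it lay between -0.90 and -0.37.

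**Figure D1:**
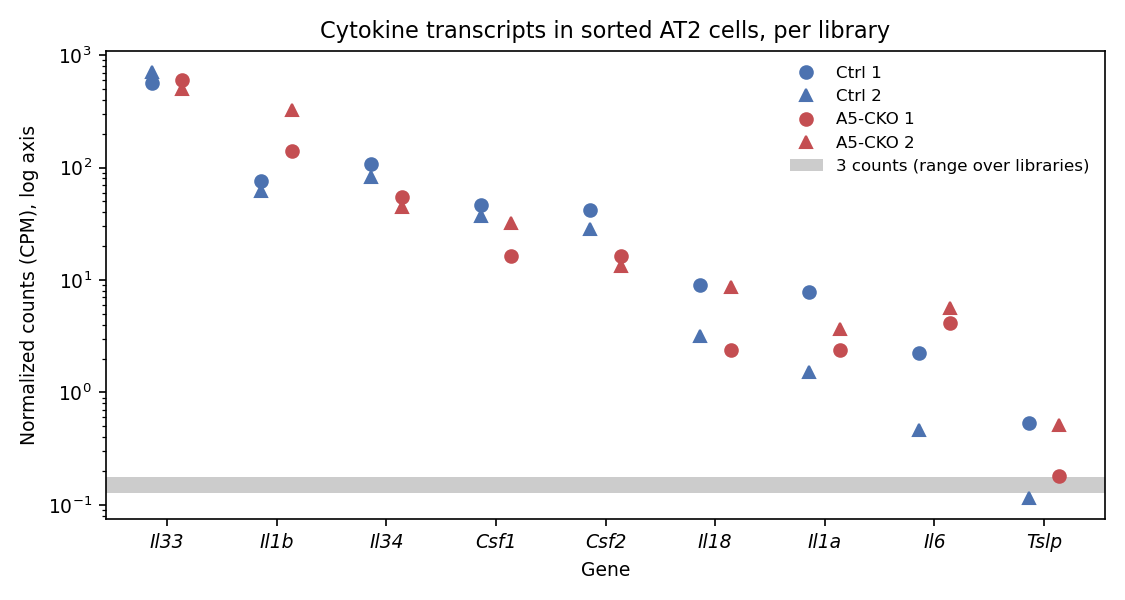
Normalized counts (CPM, log axis) of the 9 cytokine genes with any counts, one point per library, Ctrl in blue and A5-CKO in red, with the level of 3 counts as a grey band. Il33 lay between 498 and 708 CPM in every library, Il1b was highest in both A5-CKO libraries, and Csf1, Csf2 and Il34 were lowest in them.

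Per length, Il33 was the most abundant of these transcripts. Its level, as CPM per kilobase of exon, averaged 206 ± 30.3 (SD, n = 4) over all libraries, and its lowest library, at 172, lay just above the highest Il1b library, at 170. Il1b followed at 79 ± 63.3, then Il34 at 36.7 ± 14.4 and Csf2 at 31.3 ± 16.5, and these neighbours in the order overlapped. Csf2 stood apart from Csf1 (6.24 ± 2.36), whereas Csf1, Il18 (5.66 ± 3.42), Il1a (1.94 ± 1.41), Il6 (1.29 ± 0.929) and Tslp (0.252 ± 0.163) each overlapped the next. For scale, the surfactant transcript Sftpc averaged 12082 CPM per kilobase. Il33 made up 53.7% and 67% of the summed level of the 10 genes in Ctrl, against 61.7% and 43% in A5-CKO. The share of Il1b was 10.9% and 8.84% in Ctrl against 21.6% and 42.4% in A5-CKO, so that in A5-CKO 2 the transcripts of the nuclear alarmin and of the inflammasome cytokine were of nearly equal level per length.

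Il33 encodes a nuclear alarmin of the IL-1 family that acts on innate lymphoid cells and mast cells through the receptor ST2 (Il1rl1). It lies on chromosome 19 (chr19:29925113-29960718, GRCm38.p6) and had 568 and 708 CPM in Ctrl against 606 and 498 CPM in A5-CKO. The groups overlapped, with Ctrl 2 the highest library and A5-CKO 2 the lowest. The log2 fold change was -0.21 ± 0.34 (standard error), with a Benjamini-Hochberg adjusted p of 0.848 from edgeR. The sign depended on scaling: with total counts only, which moved the median of all genes from -0.02 to 0.30, the value for Il33 was 0.11, and after correcting for GC content and length it was -0.50. Among the 102 tested pathway genes, the profiles closest to Il33 over the 4 libraries were those of Zc3h12a and Ikbkg. Each had a root mean square difference of centred log2 levels of 0.10. Zc3h12a encodes the cytokine mRNA-degrading nuclease Regnase-1, and Ikbkg is one of the listed adaptors.

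Tslp, which encodes an epithelial alarmin that acts on dendritic cells and innate lymphoid cells, was near the limit of detection. It had 9 and 2 counts in Ctrl against 4 and 12 counts in A5-CKO, and it was left out by the filter on low counts. At this depth no difference in Tslp between genotypes was detectable.

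Il1a and Il18 varied more within a genotype than between genotypes. Il1a, which encodes an alarmin that is active without cleavage by the inflammasome, had 7.81 and 1.51 CPM in Ctrl against 2.4 and 3.63 CPM in A5-CKO. Il18, whose product drives interferon-γ production by lymphocytes, had 9.11 and 3.2 CPM in Ctrl against 2.4 and 8.63 CPM in A5-CKO. Ctrl 1 was the highest library for both genes, and both A5-CKO libraries lay inside the Ctrl range for Il1a. The log2 fold changes were -0.63 ± 0.82 (standard error) for Il1a and -0.16 ± 0.79 for Il18, and edgeR's Benjamini-Hochberg adjusted p values were 0.805 and 0.953. Neither direction held when a library was left out: without Ctrl 1 the values were 1.06 and 0.86, and without Ctrl 2 they were -1.41 and -0.75. Il18 was high in the same libraries as the macrophage and monocyte markers, Ctrl 1 and A5-CKO 2, and so was Il1rn, the IL-1 receptor antagonist, at 25.7, 6.28, 4.71 and 26.2 CPM. The marker sums of mesenchymal cells and mesothelial cells were also highest in these libraries. So was the sum for transitional alveolar epithelial cells, at 3294 and 1385 CPM in Ctrl against 2126 and 3528 CPM in A5-CKO. The sum for lymphocytes and plasma cells was highest there too, but was mostly the plasma cell gene Jchain. Jchain had 622 and 69.6 CPM in Ctrl against 136 and 634 CPM in A5-CKO. Mzb1 was high in the same libraries, whereas the lymphocyte markers Cd3e, Cd3g, Cd8a, Trac, Ms4a1, Nkg7 and Gata3 were lowest in A5-CKO 2. The part of any of these cells in the Il18 and Il1rn values was not tested.

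Il1b, which encodes the cytokine IL-1β, had the smallest p of the cytokines. It lies on chromosome 2 (chr2:129364569-129371164, minus strand, GRCm38.p6). Its 250 bases before the transcription start (chr2:129371140-129371389), of which the last 25 lie inside the annotated gene because the transcript start used by the promoter table lies within it, are shown because this transcript had the smallest p, with matches to a C/EBP motif and to a TATA box in capitals.
Il1b promoter: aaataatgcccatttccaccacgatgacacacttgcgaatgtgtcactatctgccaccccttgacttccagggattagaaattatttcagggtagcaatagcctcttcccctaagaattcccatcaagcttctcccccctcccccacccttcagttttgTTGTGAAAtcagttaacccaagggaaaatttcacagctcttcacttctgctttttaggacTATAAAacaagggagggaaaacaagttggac
In this sequence the C/EBP motif (TTNCNNAA on either strand) begins 91 bases before the start and the TATA box (TATAAA on either strand) begins 31 bases before it. Among 32851 mouse promoter windows of 300 bases, 40.7% held the first motif and 13.6% held the second, so neither is rare. C/EBPβ is a factor known to bind Il1b and Il6 promoters in myeloid cells, and a match in letters does not show binding.

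Il1b had 1293 and 1061 counts in Ctrl against 3097 and 7590 counts in A5-CKO. In CPM these were 76.5 and 61.7 against 140 and 324, a Ctrl mean of 69.1 ± 10.4 (SD, n = 2) and an A5-CKO mean of 232 ± 130 (SD, n = 2). The lowest A5-CKO library lay well above the highest Ctrl library, and the A5-CKO libraries differed from each other by 2.31-fold, more than the 1.24-fold between the Ctrl libraries. Il1b was 3.36-fold higher (log2 fold change 1.75 ± 0.45, standard error), and edgeR gave an unadjusted p of 0.00613 and a Benjamini-Hochberg adjusted p of 0.528. DESeq2 with its default filter gave 0.000303 and 0.0715, and the adjusted p lay between 0.0613 and 0.999 over the 16 alternatives. Without A5-CKO 2 the log2 fold change was 0.99 (unadjusted p = 0.0643 in edgeR's model fitted across all genes), and without each of the other libraries it lay between 1.57 and 2.22.

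Il1b is abundant in myeloid cells, so its level was set beside their markers. A5-CKO 1 had 140 CPM of Il1b, above both Ctrl libraries, while its macrophage and monocyte markers summed to 215 CPM, below the 960 CPM of Ctrl 1 and slightly above the 178 CPM of Ctrl 2, and its 8 neutrophil markers summed to 279 CPM, the lowest of the 4 libraries (363 and 639 CPM in Ctrl 1 and Ctrl 2, 756 CPM in A5-CKO 2). A5-CKO 2 was highest for Il1b and also for both marker sums. The 3 highest neutrophil markers were split in A5-CKO 1. S100a9 and S100a8 were lowest there, at 120 and 72.8 CPM. Csf3r, at 53 CPM, lay between Ctrl 1 (25.5 CPM) and Ctrl 2 (73.3 CPM). The highest macrophage markers, C1qb, Cd68 and C1qa, had 16.4, 34.1 and 12.2 CPM in A5-CKO 1 against 247, 153 and 203 CPM in A5-CKO 2. One macrophage and monocyte marker of 12 had an unadjusted p under 0.05, the pan-leukocyte gene Ptprc, at 50.9 and 22.5 CPM in Ctrl against 84.3 and 82.8 CPM in A5-CKO. The part of leukocyte RNA in the Il1b difference was not tested. The long noncoding RNA Il1bos overlaps the start of Il1b and had 3 counts in each Ctrl library against 40 and 77 counts in A5-CKO; since no strand setting is stated for the counting, reads from the pair cannot be told apart.

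**Figure D2:**
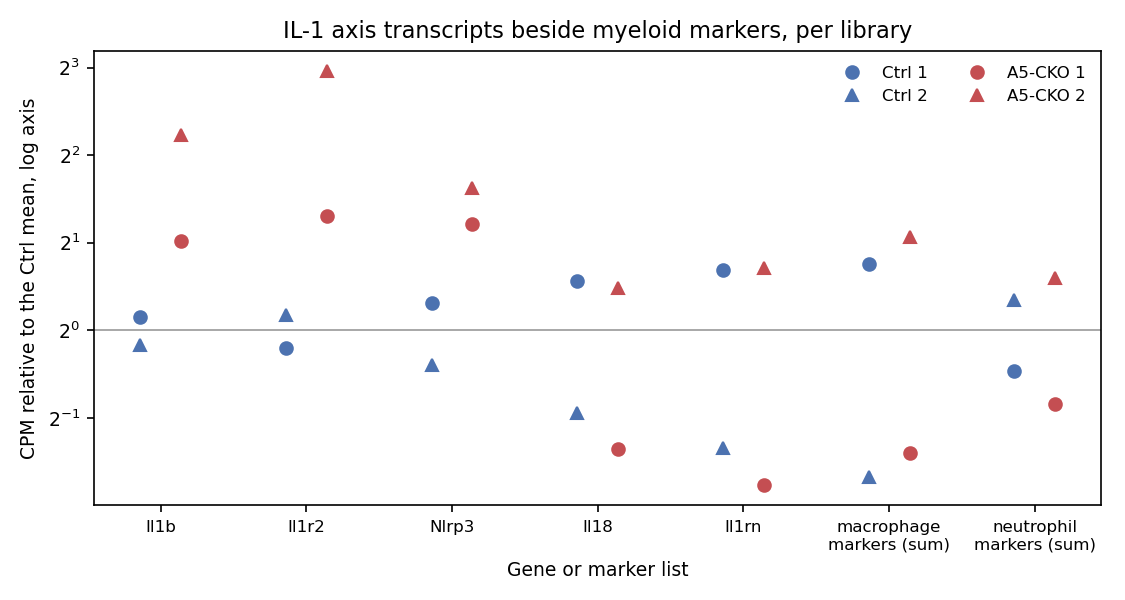
CPM of 5 IL-1 axis genes and the summed CPM of the macrophage and neutrophil marker lists, each divided by its Ctrl mean (log axis), one point per library. Il1b, Il1r2 and Nlrp3 were higher in both A5-CKO libraries, whereas Il18, Il1rn and the macrophage sum were high in Ctrl 1 and A5-CKO 2 and low in Ctrl 2 and A5-CKO 1.

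Other genes of the IL-1 axis were examined by role. Il1r2, which encodes the decoy receptor that traps IL-1β without signalling, had 5.14 and 6.69 CPM in Ctrl against 14.6 and 45.9 CPM in A5-CKO. The genotypes did not overlap, and the log2 fold change was 2.35 ± 0.60 (standard error). The Benjamini-Hochberg adjusted p was 0.528 in edgeR but 0.0277 in DESeq2 with its default filter, so the call depended on the tool, and without A5-CKO 2 the log2 fold change was 1.27. Nlrp3, the sensor of the best known inflammasome, had 6.15 and 3.78 CPM in Ctrl against 11.5 and 15.3 CPM in A5-CKO, a log2 difference of 1.43 ± 0.49 (standard error, unadjusted p = 0.023 in edgeR's model fitted across all genes). Of the pathway genes, Nlrp3 had the profile closest to Il1b over the 4 libraries (root mean square difference 0.33, Gsdme next at 0.35). Its partners overlapped between genotypes: the adaptor gene Pycard had 21.3, 9.83, 8.87 and 16 CPM, and Casp1, the protease that cuts pro-IL-1β, had 7.15, 2.09, 5.25 and 6.28 CPM. The signalling receptor Il1r1 also overlapped, from 40.7 to 50.6 CPM in Ctrl and from 44.6 to 59 CPM in A5-CKO (log2 fold change 0.18 ± 0.31, standard error).

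Il6, which encodes the cytokine that signals through gp130 and STAT3, was low in every library. It lies on the plus strand of chromosome 5 (chr5:30013114-30019975, GRCm38.p6), and its 250 bases before the start (chr5:30012864-30013113) are shown beside those of Il1b because both genes had higher counts in A5-CKO. Capitals mark, in order, an AP-1 motif (TGANTCA), a C/EBP motif (TTNCNNAA) and a κB core (GGNNTTNCC).
Il6 promoter: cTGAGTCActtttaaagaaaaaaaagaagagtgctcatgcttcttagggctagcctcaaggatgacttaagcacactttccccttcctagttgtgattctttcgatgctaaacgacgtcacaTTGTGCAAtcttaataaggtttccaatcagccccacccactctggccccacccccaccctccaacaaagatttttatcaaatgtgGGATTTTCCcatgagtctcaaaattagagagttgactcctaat
The matches begin 249, 128 and 43 bases before the start, and the AP-1 motif and the κB core occur in 7.81% and 16% of all promoter windows. Of the 4 motifs searched, the C/EBP motif was the one found before the start of both Il6 and Il1b.

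Il6 had 38 and 8 counts in Ctrl against 92 and 132 counts in A5-CKO, which is 2.25 and 0.465 CPM against 4.17 and 5.64 CPM. The genotypes did not overlap, with A5-CKO the higher, but the Ctrl libraries differed from each other by 4.83-fold. Ctrl 2 had under 10 counts, so the filter of 10 counts in every library left Il6 out. For the log2 fold change of 1.85 ± 0.82 (standard error), edgeR gave an unadjusted p of 0.0596 and a Benjamini-Hochberg adjusted p of 0.528, and DESeq2 with its default filter gave 0.0233 and 0.399. The size rested on the Ctrl libraries: the fitted value was 3.44 without Ctrl 1 and 1.09 without Ctrl 2. Its receptor chain Il6ra had 6.21 and 10.1 CPM in Ctrl against 7.7 and 18.3 CPM in A5-CKO, so the groups overlapped.

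Tnf, which encodes the cytokine that activates NF-κB through TNFR1 and TNFR2, was listed at 0 in all 4 libraries, and this could not be read as absence of the transcript. Tnf lies on chromosome 17 (chr17:35199367-35202007, GRCm38.p6) in a run of 18 consecutive protein-coding genes, from Ly6g6c to Lta, that had at most 3 counts in any library, 17 of them exactly 0. This run holds Bag6, Csnk2b, Prrc2a and Abhd16a, genes that nearly all cells use (named after their values were seen), each with 0 counts in every library. Of the 20 protein-coding neighbours of Tnf, 12 were at or under 3 counts in every library, against 0 to 5 of 20 for the other cytokines studied here. Such surroundings were not particular to Tnf: Ager had 15 such neighbours of 20, Pdpn 12, the cytokine gene Clcf1 10 and Cldn5 8. Why the stretch around Tnf is empty was not tested, and no limit or fold change is given for Tnf. Its receptors were well covered: Tnfrsf1a had 172 and 191 CPM in Ctrl against 158 and 167 CPM in A5-CKO (log2 fold change -0.16 ± 0.29, standard error, and 0.16 with total counts only), and Tnfrsf1b ranged from 58.9 to 111 CPM in Ctrl and from 64 to 119 CPM in A5-CKO.

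The growth factors of macrophages, Csf2, Il34 and Csf1, had lower values in A5-CKO libraries, but none passed the adjusted threshold. Csf2 lies on the minus strand of chromosome 11 (chr11:54247270-54249899, GRCm38.p6), and its 250 bases before the start (chr11:54249900-54250149) are shown for contrast with the promoters above, since its counts differed in the other direction. The capitals mark a C/EBP motif (TTNCNNAA), 145 bases before the start.
Csf2 promoter: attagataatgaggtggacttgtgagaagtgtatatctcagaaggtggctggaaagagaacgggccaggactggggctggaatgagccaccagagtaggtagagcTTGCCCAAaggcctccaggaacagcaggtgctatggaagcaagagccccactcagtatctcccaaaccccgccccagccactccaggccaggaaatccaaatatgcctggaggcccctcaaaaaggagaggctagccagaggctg
No AP-1 motif, κB core or TATA box in the letters searched lay in these bases, which says nothing of the factors themselves. A κB core was found 23 bases after the start.

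Csf2 had 714 and 487 counts in Ctrl against 359 and 309 counts in A5-CKO. In CPM these were 42.2 and 28.3 against 16.3 and 13.2, a Ctrl mean of 35.3 ± 9.82 (SD, n = 2) and an A5-CKO mean of 14.7 ± 2.15 (SD, n = 2). The genotypes did not overlap, and every A5-CKO value was the lower. Csf2 was 2.39-fold lower (log2 fold change -1.26 ± 0.37, standard error), with an unadjusted p of 0.0123 and a Benjamini-Hochberg adjusted p of 0.528 in edgeR and an adjusted p of 0.239 in DESeq2. The value stayed negative when each library was left out, from -1.56 without Ctrl 2 to -0.89 without Ctrl 1, and with total counts only it was -0.96. The summed AT2 markers were lower in the same libraries, but only 6 of the 10 markers were lower without overlap. Among these 6, Sftpc had 15477 and 16370 CPM in Ctrl against 10268 and 7856 CPM in A5-CKO. Sftpa1 had 15249 and 20810 against 11124 and 9094 CPM, and Slc34a2 had 8753 and 19065 against 7556 and 7013 CPM. Lamp3, Nkx2-1, Abca3 and Etv5 overlapped between genotypes. Lamp3 was highest in A5-CKO 1, at 2418 and 2182 CPM in Ctrl against 2685 and 1313 CPM in A5-CKO. The part of the AT2 markers in the Csf2 difference was not tested. The receptor chain Csf2ra, which binds GM-CSF, had 44.3 and 24 CPM in Ctrl against 50.5 and 44.2 CPM in A5-CKO, a log2 difference of 0.47 ± 0.38 (standard error) that was 1.04 without Ctrl 1 and 0.05 without Ctrl 2.

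Il34 and Csf1 encode the alternative ligands of CSF1R. Il34 (chr8:110741829-110805949, GRCm38.p6) had 1804 and 1415 counts in Ctrl against 1205 and 1039 counts in A5-CKO, or 107 and 82.3 CPM against 54.6 and 44.4 CPM. The A5-CKO libraries were the lower pair without overlap, and the libraries of a genotype differed by no more than 1.3-fold. Il34 was 1.91-fold lower (log2 fold change -0.93 ± 0.30, standard error), with an unadjusted p of 0.0181 and a Benjamini-Hochberg adjusted p of 0.528 in edgeR. A correction for GC content and length brought it to -0.58 (unadjusted p = 0.0648 in edgeR's model fitted across all genes), and total counts only to -0.63. Of 3 noncoding genes that overlap Il34, Gm15895 at one end of the gene was the most abundant, with 210, 163, 272 and 172 counts.

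Csf1 (chr3:107741048-107760469, GRCm38.p6) had 46 and 37.1 CPM in Ctrl against 16.3 and 32.4 CPM in A5-CKO. The groups did not overlap, but A5-CKO 2 lay close to Ctrl 2. The log2 fold change was -0.77 ± 0.42 (standard error; unadjusted p = 0.107 and Benjamini-Hochberg adjusted p = 0.561 in edgeR), and it was -0.37 without A5-CKO 1 and -1.39 without A5-CKO 2. Csf1r, their shared receptor and a macrophage gene, had 94.4 and 34.5 CPM in Ctrl against 51.6 and 130 CPM in A5-CKO and was high in the libraries with high macrophage markers. Sigirr, an inhibitory member of the IL-1 receptor family, had the profile closest to both Il34 and Csf2 among the pathway genes. The root mean square differences were 0.15 and 0.26. The next were Traf2 for Il34 (0.18) and Ctf1 for Csf2 (0.30). For Csf1 the closest were the protease gene Capn1 (0.30) and Ninj1 (0.31).

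**Figure D3:**
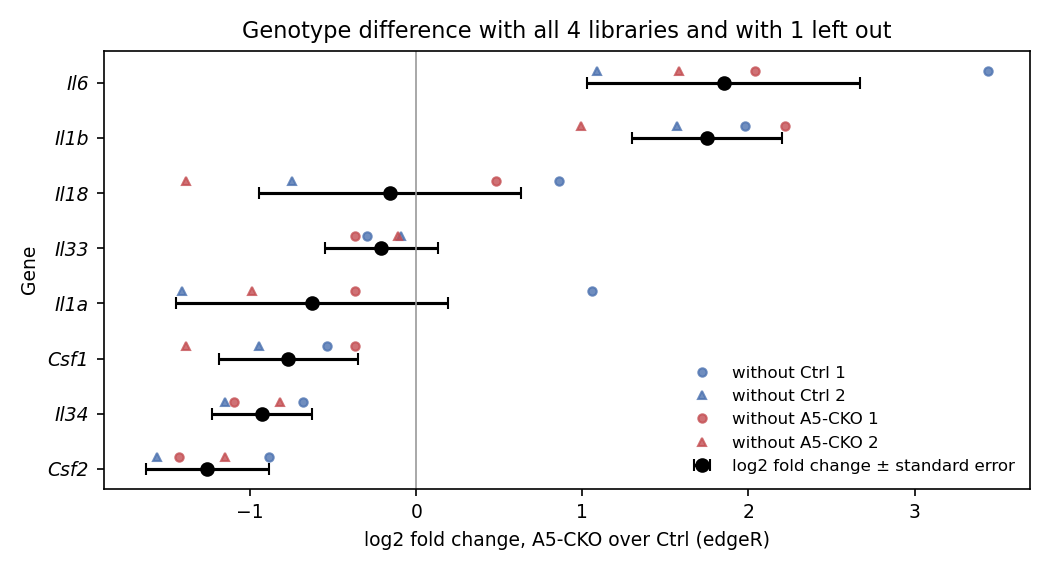
Log2 fold change of A5-CKO over Ctrl for the 8 tested cytokines, with its standard error as bars (black), and the value with 1 library left out (coloured symbols above each bar). Il1b and Il6 stayed above 0 and Csf1, Il34, Csf2 and Il33 below 0 whichever library was left out, whereas Il18 and Il1a crossed 0.

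The letters of the transcripts were compared next, since many cytokine mRNAs carry AU-rich elements, built on the pentamer ATTTA, to which decay factors such as TTP (Zfp36) bind. In the longest coding transcript of each gene (GENCODE M21), all 10 cytokines had at least 1 ATTTA in the 3′ UTR, as did 64.8% of 20945 genes. The longer core TATTTAT was present in 6 of the 10 and in 27.5% of genes. Csf2 held 9 copies of TATTTAT in 317 bases and Tnf held 8 in 764, counts that 0.119% and 0.167% of genes reach, and Il1a and Il1b held 3 each, reached by 4.08%. Of these, Csf2 (9 copies) was lower and Il1b (3 copies) higher in A5-CKO. Il1a, also with 3 copies, overlapped between genotypes, with a log2 fold change of -0.63. No relation to the number of copies was tested. For GGACT, the core letters around many m6A sites, Il34 held 7 copies in 1796 bases, or 3.9 per kilobase, a density reached by 0.688% of genes; the other 9 cytokines held between 0.507 and 1.83 per kilobase, beside a median of 1.02 over all genes. These are matches of letters, methylation was not measured in these libraries, and no relation to the fold changes was tested.

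Genes of the same pathways were counted from lists of receptors, antagonists, processing factors, adaptors, NF-κB and STAT genes, AU-rich decay factors and other cytokines. Of 110 listed genes, 102 were tested, 58 were above Ctrl and 44 below it, and the median log2 fold change was 0.12, against -0.02 for all genes. No pathway gene passed the adjusted threshold in edgeR, and 8 of 102 had an unadjusted p under 0.05, a share near the 9.18% of all genes. All 8 were higher in A5-CKO, where 4.48% of all genes were past that limit and higher, and for Il10, which passed the filter on low counts through its A5-CKO libraries, the filter favoured that direction.

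**Figure D4:**
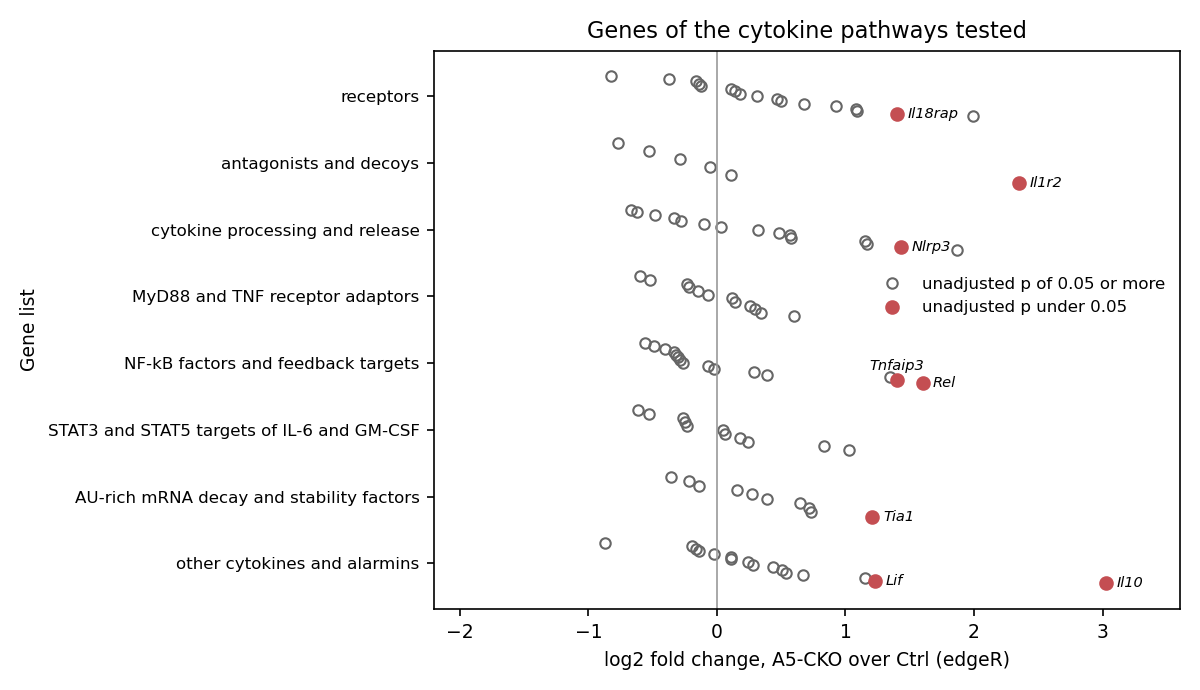
Log2 fold change of A5-CKO over Ctrl for each tested gene of the pathway lists (1 point per gene), filled and named where the unadjusted p was under 0.05. The 8 filled genes lay between 1.21 and 3.03, the highest being Il10, which had at most 4 counts in a Ctrl library, and each of the 8 lists held genes on either side of 0.

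Among 17 receptors, 12 were above and 5 below Ctrl. Il18rap, the accessory chain of the IL-18 receptor, had 12.7 and 5.35 CPM in Ctrl against 18 and 29.6 CPM in A5-CKO, a log2 difference of 1.40 ± 0.53 (standard error) that was 2.22 without Ctrl 1 and 0.88 without Ctrl 2. Its partner Il18r1 overlapped between groups at 149, 84.1, 187 and 102 CPM. Il1rl1, the receptor of IL-33, was rare, with 12 and 4 counts in Ctrl and 22 and 65 counts in A5-CKO (log2 fold change 1.99 ± 0.91, standard error, unadjusted p = 0.0645 in edgeR's model fitted across all genes). That value was 3.06 without Ctrl 1, 1.38 without Ctrl 2, 2.53 without A5-CKO 1 and 1.04 without A5-CKO 2. Crlf2, the TSLP receptor chain, overlapped at 44.6, 23.9, 18.7 and 34.2 CPM.

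Of the 6 antagonists and decoys, 2 were above and 4 below Ctrl, and Il1r2 alone had an unadjusted p under 0.05. In these short lists, single genes past that limit are to be read beside the 9.18% of all genes. Il18bp, which neutralizes IL-18, had 21.3 and 9.89 CPM in Ctrl against 10.1 and 15.6 CPM in A5-CKO. Of the 15 processing and release genes, 9 were above and 6 below Ctrl, and Nlrp3 alone had an unadjusted p under 0.05. The 12 adaptors split evenly, with 6 above and 6 below Ctrl and none past that limit.

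Among 15 NF-κB factors and feedback targets, 5 were above and 10 below Ctrl. Tnfaip3, which encodes A20, the enzyme that shuts off NF-κB signalling, had 36.6 and 32.1 CPM in Ctrl against 116 and 65.1 CPM in A5-CKO, a log2 difference of 1.40 ± 0.36 (standard error, unadjusted p = 0.00648 in edgeR's model fitted across all genes). Without A5-CKO 1 it was 0.91 (unadjusted p = 0.082). Rel, which encodes c-Rel, had 7.15 and 10.2 CPM in Ctrl against 32.8 and 20 CPM in A5-CKO, a log2 difference of 1.60 ± 0.44 (standard error). Neither gene overlapped between genotypes, and A5-CKO 1 was the highest library for both, where for Il1b it was A5-CKO 2. Nfkbiz, a co-activator of Il6 transcription, was at 243 CPM in A5-CKO 1 but at 63.5 CPM in A5-CKO 2, inside the Ctrl range of 44.2 to 76.2 CPM. Nfkbia, which encodes the inhibitor IκBα, had 132 and 113 CPM in Ctrl against 196 and 126 CPM in A5-CKO.

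Among 11 genes of STAT3 and STAT5 signalling by IL-6 and GM-CSF, 6 were above and 5 below Ctrl and none passed the unadjusted limit. They were the targets Bcl3, Cish, Pim1, Lcn2, Fgl1 and Il4ra and the pathway's own genes Stat3, Stat5a, Stat5b, Jak1 and Jak2. Of 10 AU-rich decay and stability factors, 7 were above and 3 below Ctrl. Tia1, a translational silencer that binds Tnf mRNA, had 21.1 and 12.6 CPM in Ctrl against 52.8 and 25.5 CPM in A5-CKO, a log2 difference of 1.21 ± 0.47 (standard error) that was 0.58 without A5-CKO 1. Zfp36 was abundant and overlapped between genotypes, at 763, 1430, 1312 and 567 CPM.

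Of 24 other cytokines and alarmins, 16 were tested, with 11 above and 5 below Ctrl. Lif, an IL-6 family cytokine, had 11.5 and 5.18 CPM in Ctrl against 15.9 and 23.4 CPM in A5-CKO (log2 fold change 1.23 ± 0.52, standard error, and 1.99 without Ctrl 1 or 0.73 without Ctrl 2). Il10, which encodes an anti-inflammatory cytokine, had 4 and 2 counts in Ctrl and 27 and 41 counts in A5-CKO, and it passed the filter on low counts through its A5-CKO libraries. Its fitted value, 3.03 ± 0.85 (standard error) on the log2 scale, therefore depends on few reads and became 3.67 without Ctrl 1.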

How the data were processed

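The deposited values are whole read counts per gene, which the authors made from AT2 cell total RNA (SMARTER mRNA-Seq kit). Reads were trimmed with Trim Galore 0.6.10, freed of ribosomal RNA, mapped with HISAT2 2.2.1 to mm10.p6, cleared of duplicates with sambamba and counted with featureCounts 2.0.3 on an NCBI annotation. The counting is described in the methods for the m6A libraries and was taken to hold here. The strand setting is not given in the sources used here, so overlapping and antisense genes are uncertain. The control columns are headed WT in the table and were matched to the Alkbh5flox/+ libraries by replicate number.

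The 4 libraries were fitted together in edgeR 4.0.16 (R 4.3.3) with TMM factors, filterByExpr (16661 genes kept), glmQLFit and glmQLFTest, with genotype as the term and two-sided tests adjusted by Benjamini-Hochberg over all genes kept. The common dispersion was 0.173 (biological coefficient of variation 41.6%). A standard error is the size of the log2 fold change over the root of its F statistic. With 2 libraries a group, the smallest two-sided p a label permutation allows is 0.333. Counts of same-genotype libraries were far from sampling noise alone (chi-square over degrees of freedom 110 in Ctrl and 96.4 in A5-CKO), so none was a repeat deposit. Each was treated as 1 replicate, although these values cannot show that the libraries came from separate mice. The fit was tested on simulated data with known changes, all of at least 4-fold. Every tested cytokine had a smaller fitted difference than that, and recovery of such smaller changes was not simulated. At a dispersion of 0.173, as in these data, the fit recovered 115 of 200 changed genes, with 5 false calls. At a dispersion of 0.02 it recovered 199 of 200, with 7 false calls. Real changes could therefore be missed at the spread of these libraries.

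Levels between genes used the union of GENCODE M21 exons. Coordinates and promoter sequences (250 bases before to 50 after a start) are those of RefSeq on GRCm38.p6. Promoters were on hand for 8 of the 10 cytokines, not Il34 or Tslp, and motif shares leave out 1 chromosome. Of the 24 other cytokines and alarmins, 3 (Il36a, Il36b and Il36g) were found under an older symbol.

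Alternatives were other scaling (RLE, upper-quartile, total counts only), other filters (none, or 10 counts in every library), DESeq2 1.42.0 (the genes of the edgeR fit, or default filtering), limma voom (limma 3.58.1), a robust fit, a replicate block, a correction for GC content and length by splines with 4 degrees of freedom, both together, and each library left out. Named genes are the 10 cytokines, Alkbh5, a fixed set of receptors, antagonists, inflammasome and NF-κB genes and Zfp36. Every pathway gene with an unadjusted p under 0.05 (at most 4 a list) is also named. So are the 3 highest markers of a list that moved with a result. For each cytokine of at least 10 CPM on average, the pathway gene of the most similar profile and the next are named. The cytokines and all lists were chosen with earlier results of these data known.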

Additional observations from a re-analysis of the deposited data

How the results depend on the processing

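Of 525 values of 33 named genes under 16 alternatives, 487 kept their direction and their side of an adjusted p of 0.05, 34 changed direction and 4 passed the threshold (Alkbh5 and Il1r2 in both DESeq2 runs). For the cytokines, 122 of 127 values were of the first kind and 5 changed direction. DESeq2 called 55 genes at an adjusted p under 0.05 on the genes of the edgeR fit and 59 by default filtering, none of them a cytokine studied here, where edgeR called 0 and had 1530 at an unadjusted p under 0.05.

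With total counts only, which moved the median of all genes from -0.02 to 0.30, log2 fold changes that turned were Il33 0.11, Il18 0.14, Tnfrsf1a 0.16, Il1rn 0.24, Il18bp 0.01 and Zfp36 0.11, and the pathway genes past the unadjusted limit were 16 in place of 8 while those of all genes were 1877 in place of 1530. Upper-quartile factors turned Il1rn to 0.04. The GC content and length correction turned Crlf2 to 0.11, Il1r1 to -0.25 and Tnfrsf1a to 0.12.

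Replicate numbers are not said to mark a litter or batch, and same-numbered deviations correlated at -0.348, so the numbers were not taken as pairs. With the replicate block, 754 genes and 5 pathway genes had an unadjusted p under 0.05, and none had an adjusted p under 0.05. With the block and the GC content and length correction these were 495 and 4, and Crlf2 turned to 0.08, Il18r1 to -0.01, Il1r1 to -0.26 and Tnfrsf1a to 0.13.

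Leaving out each library in turn gave 746 to 1668 genes, 6 to 15 pathway genes and 1 to 3 cytokines at an unadjusted p under 0.05, and a cytokine median of -0.90 to 0.28. The log2 fold changes ran from -1.39 to 0.86 for Il18, -1.41 to 1.06 for Il1a, -0.91 to 0.22 for Crlf2, -1.79 to 1.38 for Il1rn, -0.77 to 0.44 for Il18bp, -0.84 to 0.41 for Pycard, -0.20 to 0.83 for Il18r1, -0.35 to 1.47 for Csf1r, -0.44 to 0.70 for Tnfrsf1b, -0.35 to 1.52 for Casp1, -0.96 to 0.25 for Zfp36, -0.05 to 0.34 for Il1r1 and -0.11 to 1.16 for Il6ra. What caused these shifts was not tested. Low counts limit Tslp, Il10, Il1rl1 and Il6, among others, and Tnf could not be read.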
